A study of Felis catus with 15 samples.

Results

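Extracellular vesicle biogenesis and uptake are described here through 52 genes of the domestic cat (Felis catus), chosen by name for what their products do. All 52 were found by symbol among the 38995 genes of the deposited count table, and all 52 were among the 18038 genes that passed the filter on low counts. They fall into 5 subgroups: 11 tetraspanins and related surface proteins, 14 genes of the ESCRT and syndecan-syntenin route, 11 RAB, SNARE and release genes, 7 annexin and phosphatidylserine-binding genes, and 9 genes of endocytosis. Their choice used no measured value, although it was made with earlier results of these data known.

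Cells release small membrane-bound particles by 2 routes: vesicles that form inside a late endosome are set free as exosomes when that compartment fuses with the surface, and others bud straight from the plasma membrane. Tetraspanins organise the membrane of such vesicles, the ESCRT complexes and the syndecan-syntenin-ALIX route shape and cut the buds, RAB GTPases and SNAREs bring the endosome to the surface and fuse it, and clathrin, caveolins, flotillins and phosphatidylserine-binding proteins serve uptake. In the epididymis, the duct in which sperm mature, such vesicles (epididymosomes) are known for carrying proteins and RNA from the lining epithelium to the sperm passing by.

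The samples are pieces of epididymal corpus, which lies between caput and cauda, in 3 groups of 5 RNA-seq libraries. The first group is fresh tissue, the second is explants kept in culture without vesicles, and the third is explants cultured with extracellular vesicles taken from the caput, the region upstream; they are called fresh tissue, culture and vesicle culture below. The series text gives the question as what caput vesicles do to the corpus transcriptome, with fresh tissue as the control. No strain, age or genetic change is given for any group, the sources used here do not state how much vesicle material was added, and a label code, D0 on fresh libraries and D3 on cultured ones, is not explained there. Nothing in the labels says that the 5 replicates are separate animals, so the p-values reflect spread among these samples that may be technical. Libraries are named by group and replicate number, which links libraries between groups but is not a term in the main test.

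Total counts ranged from 17308832 to 27420218 per library. The 52 genes took 0.602% to 1.027% of the counts of a library. Levels are CPM, counts scaled to a common library size, and cannot be compared between genes because transcript length was not used. Genes are called as higher or lower at an adjusted p under 0.05 in edgeR's quasi-likelihood test, adjusted by Benjamini-Hochberg across all 18038 genes. Culture 3 stands apart: mitochondrially encoded protein genes took 0.179% of its counts against 6.23% to 7.48% in the other 4 cultures. For 46 of the 52 genes its level lay outside the range of the other 4 cultures (23 above, 23 below), which is 88.5%, against 70.3% of all tested genes. For each of the other 4 cultures that share of the 52 genes was 25% to 28.8%. Results that move with this library are given with and without it. In bulk tissue, fewer cells of a type and less RNA per cell cannot be told apart.

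Levels of marker genes of several cell types moved with culture. These are RNA levels, and cell numbers were not measured. The marker counts are to be read against all tested genes, of which 28.7% were higher and 25.6% lower in culture (30.9% and 29% without culture 3). Of 10 tested markers of the epididymal epithelium all 10 fell (9 without culture 3), and their summed level ran from 27816 to 34323 CPM in fresh libraries, from 1238 to 3552 in cultures (from 2470 without culture 3) and from 2364 to 3764 in vesicle cultures. The lipocalin LCN8, also on that list of 12, was at 0 in all fresh and all vesicle culture libraries. All 7 tested basal cell markers rose (404 to 724, 2329 to 7559, or to 4649 without culture 3, and 2175 to 5421 CPM), as did 5 of 8 fibroblast markers, or 7 without culture 3 (570 to 2305, 1409 to 15898 and 1092 to 11551 CPM) and 5 of 10 endothelial markers, or 4 without culture 3 (269 to 364, 471 to 635 and 380 to 829 CPM). Smaller numbers moved among markers of smooth muscle (2 of 8 higher), macrophages (3 of 8 higher), lymphocytes (2 of 5 lower), clear cells (1 higher and 2 lower of 6; 1 and 0 without culture 3) and other epithelium (3 of 6 higher; 2 without culture 3). Of 7 tested sperm genes 6 fell and 1 rose, and the sperm genes AKAP4 and CAPZA3 were at 0 in all 5 cultures. The mean log2 CPM of tested sperm genes was 1.23 to 3.60 in fresh libraries and -0.72 to 0.25 in cultures. A gene so low in culture can pass the filter on low counts through fresh tissue alone, so its fall is not separate support. What part the shifts in marker levels have in the vesicle gene results was not tested.

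In culture, 24 of the 52 vesicle genes were higher than in fresh tissue, 5 were lower and 23 were not called. The 29 called genes are 55.8% of the 52, against 54.3% of all tested genes, so the share that changed was near the background. Direction was less even: 46.2% of the 52 were higher and 9.62% lower, against 28.7% and 25.6% of all tested genes. Their median log2 fold change was 0.45 against 0.04 over all genes, while the median size of change regardless of sign was 0.58 against 0.78. Among the called genes, 16 were higher and 2 lower by over 2-fold, which is 34.6% of the 52 against 36.4% of all tested genes. Without culture 3, 29 were higher and 6 lower (67.3% called, against 59.9% of all genes). The 5 genes that fell were TSPAN3, TSPAN8, TSG101, RAB27A and SMPD3. Of these, RAB27A and SMPD3 were lower by over 2-fold, and SMPD3 passed the filter on low counts through fresh tissue alone.

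For 22 genes (18 higher, 4 lower) every culture library lay outside the range of all fresh libraries, against 40.5% of all tested genes (20.2% higher, 20.4% lower). Summed over the 52 genes, fresh libraries held 6063 to 6601 CPM, cultures 8317 to 10969 and vesicle cultures 8609 to 9991. The 3 ranges of this sum are set apart for fresh tissue alone, and the 2 cultures overlap.

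**Figure D1:**
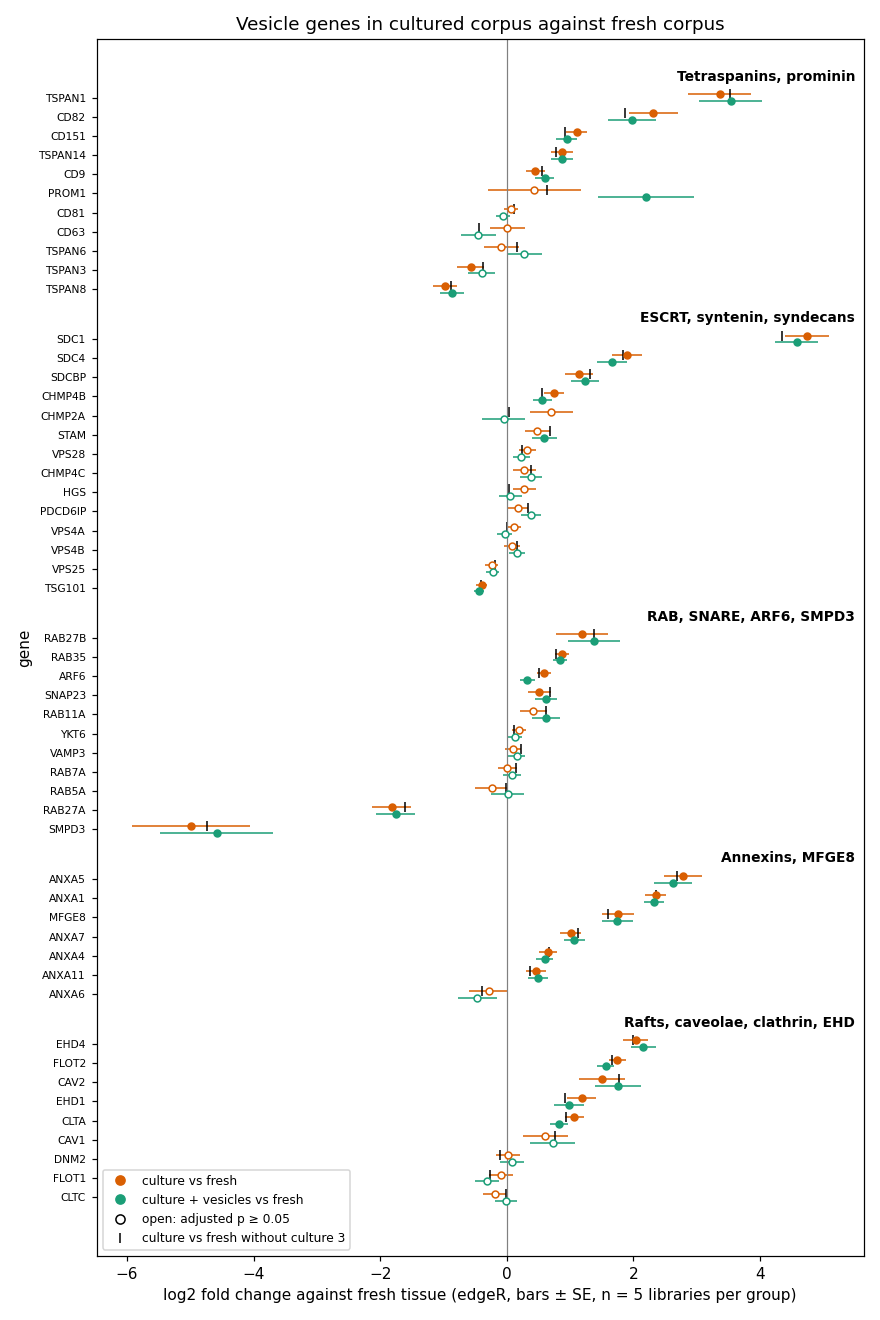
Log2 fold change of each of the 52 vesicle genes (a line for each gene, grouped by role) in culture and in vesicle culture against fresh tissue; points are edgeR estimates, bars ± SE with 5 libraries per group, filled points have an adjusted p under 0.05, and black ticks give culture without culture 3. Filled points lie mostly right of 0, where 24 genes are called in culture, and 5 lie left of it.

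The subgroup counts below are to be read against all tested genes, of which 28.7% were higher and 25.6% lower in culture. Without culture 3 these shares were 30.9% and 29%. In the order of the subgroups, 63.6%, 35.7%, 54.5%, 85.7% and 55.6% of genes were called in culture, against 54.3% of all tested genes. Among the 11 tetraspanins and related surface proteins, 5 rose in culture, 2 fell and 4 were not called (median log2 0.43). TSPAN1 and TSPAN8, both tetraspanins of epithelial surfaces, went opposite ways. TSPAN1 (gene 101093789) was at 7.15, 19.0, 36.7, 5.20 and 20.2 CPM in fresh libraries 1 to 5, at 191, 136, 98.2, 319.9 and 162 in cultures 1 to 5, and at 179.7, 133, 178, 343 and 191 in vesicle cultures 1 to 5. Every cultured library was above every fresh one, and TSPAN1 rose 10.3-fold in culture (log2 3.36 ± 0.49, SE, with 5 libraries in each group; adjusted p = 4.04e-05). TSPAN8 (gene 101101146) was at 657, 685, 627, 467 and 536 CPM in fresh tissue, 318, 272, 225, 386 and 311 in culture, and 329.8, 210.1, 434, 352 and 296 in vesicle culture. All 10 cultured libraries lay below the lowest fresh one, and the culture level was 1.97-fold lower (log2 -0.98 ± 0.19, adjusted p = 0.000517).

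CD82 and CD151 bind integrins and other surface receptors into tetraspanin-rich patches of membrane. CD82 (gene 101084137) was at 20.3, 51.5, 58.8, 28.3 and 31.7 CPM in fresh tissue, 114, 203, 398, 137 and 97.2 in culture, and 109, 199, 165, 136 and 138 in vesicle culture. The groups did not overlap, culture 3 was the highest library, and CD82 rose 4.98-fold (log2 2.32 ± 0.38, adjusted p = 0.000125; log2 1.86 without culture 3). CD151 (gene 101098337) was at 75.2, 80.6, 69.2, 64.8 and 55.2 CPM in fresh tissue, 132, 133, 224, 126 and 127 in culture, and 143, 128, 136, 141 and 117 in vesicle culture. Apart from culture 3 the cultured libraries were close together, all above fresh tissue, and CD151 rose 2.15-fold (log2 1.10 ± 0.16, adjusted p = 4.80e-05). TSPAN14, a tetraspanin that escorts the protease ADAM10, was higher by a log2 of 0.87 (adjusted p = 0.00072).

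CD9, CD63 and CD81 are the tetraspanins most used to mark vesicles, and their transcripts did not move together. CD9 (gene 493874) was at 241, 215, 216, 198 and 185 CPM in fresh tissue, 293, 269, 205, 338 and 331 in culture, and 348, 266, 343, 368 and 268 in vesicle culture. Culture 3 lay within the fresh range and the other 4 cultures above it, with a log2 fold change of 0.45 ± 0.15 (adjusted p = 0.02). That call was lost without fresh 5 (0.41, adjusted p = 0.0512), culture 4 (0.38, 0.0534) or culture 5 (0.38, 0.051), and it held without culture 3 (0.55).

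CD63 (gene 493846), which sits mainly in late endosomes, was at 731, 783, 569, 539 and 568 CPM in fresh tissue, 420.3, 542, 1332, 465 and 449.9 in culture, and 482, 512, 375, 522 and 438 in vesicle culture. Culture 3 was the highest of all 15 libraries, and 3 of the other 4 cultures were below every fresh one. With culture 3 the log2 fold change was 0.01 ± 0.28 (adjusted p = 0.983), and without it CD63 was lower in culture by a log2 of -0.43 ± 0.14 (adjusted p = 0.0139). All 5 vesicle cultures lay below all 5 fresh libraries, with a log2 fold change of -0.45 against fresh tissue that was not called with culture 3 in the fit (adjusted p = 0.183) and was called without it (-0.45, adjusted p = 0.00789).

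CD81 (gene 101093144) was at 382, 439, 379, 394 and 419 CPM in fresh tissue, 445, 499.6, 378, 388 and 405 in culture, and 419, 425, 369, 374 and 353 in vesicle culture. The groups overlapped, and the log2 fold change in culture was 0.07 ± 0.11 (adjusted p = 0.606). TSPAN3, a broadly expressed tetraspanin, fell by 0.57 on the log2 scale (adjusted p = 0.0334), or by 0.37 without culture 3. That call was lost without fresh 1 (adjusted p = 0.0728), fresh 3 (0.0614) or fresh 5 (0.066). It was also lost with only the 10 libraries compared (0.0674) and with no low-count filter (0.0621). TSPAN6, at -0.09 with culture 3 and 0.15 without it, and PROM1, a pentaspan protein of membrane protrusions, at 0.43, were not called.

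Of the 14 ESCRT and syndecan-syntenin genes, 4 rose in culture, 1 fell and 9 were not called (median log2 0.30). Of the 4 that rose, 3 belong to the syndecan-syntenin end of the list. Syndecan-1 and syndecan-4 are surface heparan sulfate proteoglycans whose tails recruit syntenin, the SDCBP product, which in turn recruits ALIX, the PDCD6IP product, to bud vesicles into the endosome. Without culture 3 the subgroup had 7 higher, 1 lower and 6 uncalled genes.

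SDC1 (gene 101101459) was at 37.7, 34.8, 24.0, 29.3 and 19.2 CPM in fresh tissue, 522, 473, 1543, 709 and 639.6 in culture, and 744, 591, 773, 835 and 531 in vesicle culture. The lowest cultured library was far above the highest fresh one, and SDC1 rose 26.8-fold (log2 4.74 ± 0.34, adjusted p = 4.38e-08; log2 4.34 without culture 3, the highest library). SDC4 (gene 101090430) was at 90.2, 80.0, 57.1, 159 and 85.5 CPM in fresh tissue, 307, 254, 429, 351 and 422 in culture, and 296, 267, 279.8, 371 and 273 in vesicle culture. The ranges did not overlap, and SDC4 rose 3.73-fold (log2 1.90 ± 0.24, adjusted p = 8.66e-06).

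SDCBP (gene 101099858) was at 157, 143, 184, 209.9 and 142 CPM in fresh tissue, 386, 358, 181, 505 and 402 in culture, and 388, 346, 416, 499 and 325 in vesicle culture. Culture 3 alone lay within the fresh range; SDCBP rose 2.19-fold (log2 1.13 ± 0.22, adjusted p = 0.00051; log2 1.31 without culture 3). PDCD6IP (gene 101095279) was at 224, 204, 244, 223 and 249 CPM in fresh tissue, 281, 244, 154, 296 and 321 in culture, and 305, 271, 299, 323 and 295 in vesicle culture. Culture 3 was the lowest of all libraries, and the log2 fold change was 0.18 ± 0.16 with it (adjusted p = 0.358) and 0.33 ± 0.09 without it (adjusted p = 0.00698).

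TSG101 (gene 101100915), the ESCRT-I subunit that binds cargo, was at 86.4, 93.4, 91.6, 96.4 and 87.1 CPM in fresh tissue, 64.4, 68.4, 74.1, 71.3 and 67.0 in culture, and 68.8, 68.0, 65.3, 71.4 and 61.8 in vesicle culture. All 10 cultured libraries were below all fresh ones, and TSG101 was 1.32-fold lower in culture (log2 -0.40 ± 0.09, adjusted p = 0.00121). Among the 52 genes it had the smallest spread between cultures (SD of 0.078 on the log2 CPM scale), and its log2 fold change was -0.42 without culture 3. CHMP4B, a filament-forming ESCRT-III subunit, rose by 0.75 (adjusted p = 0.000837; 0.56 without culture 3).

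CHMP2A (gene 101085934), an ESCRT-III subunit that recruits the VPS4 ATPase, was at 84.3, 89.7, 98.9, 101 and 91.8 CPM in fresh tissue, 85.1, 99.6, 379, 94.1 and 100.4 in culture, and 88.9, 87.7, 91.6, 96.2 and 85.6 in vesicle culture. Culture 3 set its log2 fold change of 0.70 (adjusted p = 0.0913), which was 0.03 without it. STAM, an ESCRT-0 subunit that gathers ubiquitinated cargo, was at 0.48 (adjusted p = 0.05, just above the threshold) and was called without culture 3 (0.67, adjusted p = 1.39e-05), as was the ESCRT-III subunit CHMP4C (0.28 with culture 3; 0.38 without, adjusted p = 0.0493). The ESCRT-0 subunit HGS, the ESCRT-I subunit VPS28, the ESCRT-II subunit VPS25 and the ATPases VPS4A and VPS4B that take ESCRT-III apart were not called, at log2 values from -0.24 to 0.32. VPS25, the lowest of these, was near the threshold (-0.24, adjusted p = 0.0596) and was called as lower in 9 of 23 alternatives, DESeq2 among them, and in 8 for vesicle culture. VPS28, the highest, was nearer still (0.32, adjusted p = 0.0527). It was called as higher in 4 of 23 alternatives, and in 1 for vesicle culture.

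Of the 11 RAB, SNARE and release genes, 4 rose in culture, 2 fell and 5 were not called (median log2 0.19). RAB27A and RAB27B, paralogous GTPases that dock late endosomes at the plasma membrane for release, went opposite ways. RAB27A (gene 101086976) was at 71.8, 52.4, 23.7, 61.8 and 55.4 CPM in fresh tissue, 16.9, 19.1, 6.13, 17.2 and 15.6 in culture, and 17.4, 16.1, 11.2, 17.3 and 16.3 in vesicle culture. The library numbered 3 was the lowest of its group in all 3 groups, no group of cultures overlapped fresh tissue, and RAB27A was 3.53-fold lower in culture (log2 -1.82 ± 0.30, adjusted p = 0.000128; log2 -1.61 without culture 3).

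RAB27B (gene 101096852) was at 23.7, 9.67, 11.4, 5.71 and 7.32 CPM in fresh tissue, 39.0, 15.7, 12.8, 31.4 and 32.8 in culture, and 48.1, 16.2, 35.4, 27.04 and 23.4 in vesicle culture. The ranges overlapped, with fresh 1 above cultures 2 and 3, and RAB27B was 2.28-fold higher (log2 1.19 ± 0.41, adjusted p = 0.0225). The call was lost without fresh 4 (1.02, adjusted p = 0.0542), fresh 5 (1.07, 0.0559) or culture 1 (1.00, 0.0606).

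The count ratio of RAB27A to RAB27B within a library, given as a description, ran from 2.08 to 10.8 in fresh libraries, from 0.434 to 1.21 in cultures and from 0.315 to 0.989 in vesicle cultures. Such a ratio depends on transcript length, so its change between groups can be read and its level cannot. The RefSeq gene table places PIGBOS1 across RAB27A; PIGBOS1 held 22% as many counts as RAB27A, and its own log2 fold change was -0.29 (adjusted p = 0.279). Whether the counting used strand is unknown, so reads from such overlapping genes may have been mixed.

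SMPD3 (gene 101094390) encodes neutral sphingomyelinase 2, which makes the ceramide of an ESCRT-independent budding route. It was at 1.18, 0.763, 1.41, 1.96 and 1.13 CPM in fresh tissue, at 0.158 in culture 1 and 0 in the other 4 cultures, and at 0.143, 0, 0, 0.0787 and 0 in vesicle culture. In counts this is 134 over the 5 fresh libraries, 4 over the 5 cultures and 6 over the 5 vesicle cultures. The fitted log2 fold change in culture was -5.00 ± 0.93 (adjusted p = 0.000355), and -7.85 without culture 1. SMPD3 passed the filter on low counts through fresh tissue alone, so this p-value is not separate support for a fall. With most cultures at 0, the fitted value depends on the prior count. A long noncoding RNA gene overlaps SMPD3 in the gene table, held 134% of its counts, and was also lower in culture (log2 -1.98, adjusted p = 0.0179).

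RAB35 (gene 101080411), a GTPase of recycling endosomes that also acts in exosome release, was at 31.3, 34.6, 33.2, 32.2 and 35.3 CPM in fresh tissue, 52.5, 55.1, 77.2, 57.7 and 62.0 in culture, and 58.2, 62.1, 59.6, 62.5 and 56.9 in vesicle culture. Fresh libraries were tightly grouped and all cultured ones lay above them, a 1.83-fold rise (log2 0.87 ± 0.11, adjusted p = 1.05e-05). ARF6 (gene 101093695), a GTPase of budding at the plasma membrane, was at 85.7, 84.0, 78.4, 98.2 and 78.6 CPM in fresh tissue, 112, 117, 159, 124 and 128 in culture, and 104, 101, 94.8, 111 and 121 in vesicle culture. Cultures were all above fresh tissue, while vesicle cultures overlapped it; the log2 fold change in culture was 0.59 ± 0.12 (adjusted p = 0.000609).

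SNAP23, a SNARE of the plasma membrane, was higher in culture by a log2 of 0.52 (adjusted p = 0.0222), a call lost without fresh 1 (adjusted p = 0.0544) or culture 5 (0.0602). LRRC57 overlaps SNAP23, held 58.3% as many counts and was lower in culture (log2 -0.76, adjusted p = 0.00173). RAB5A of early endosomes, RAB7A of late endosomes, RAB11A of recycling endosomes and the SNAREs VAMP3 and YKT6 were not called with culture 3 in the fit, at log2 values from -0.24 to 0.42. Without it RAB11A (0.62, adjusted p = 0.000289) and VAMP3 (0.22, adjusted p = 0.009) were called as higher.

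**Figure D2:**
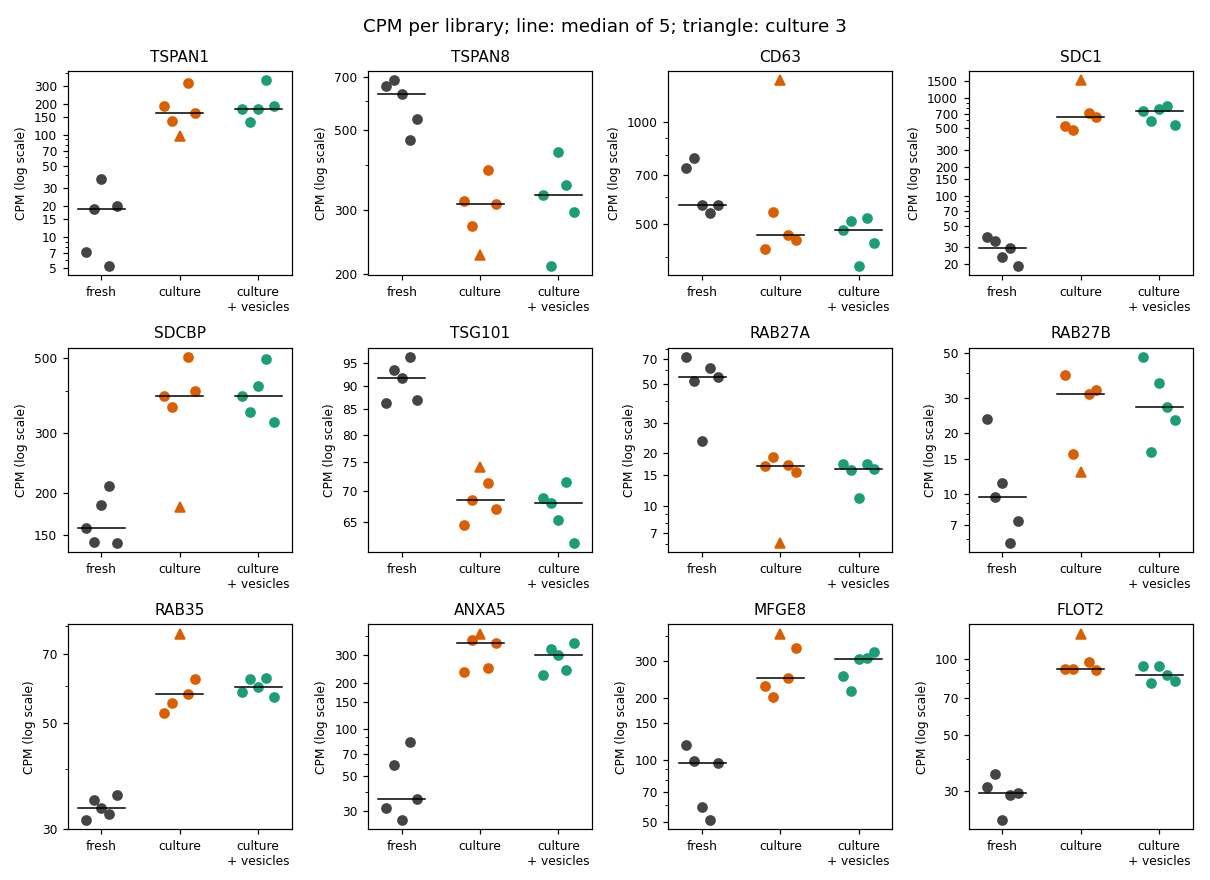
CPM on a log axis of 12 vesicle genes in each of the 15 libraries, by group; the line is the median of the 5 libraries and the triangle is culture 3. TSPAN1, SDC1, RAB35, ANXA5, MFGE8 and FLOT2 lie above fresh tissue in every cultured library, and TSPAN8, TSG101 and RAB27A below it. The triangle stands apart from the other cultures for CD63, SDC1, SDCBP, RAB27A and FLOT2, among others.

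Annexins bind acidic phospholipids when calcium rises, and are common in vesicle membranes. In this subgroup 6 of 7 genes rose in culture and none fell (median log2 1.01), with ANXA6 not called at -0.29 (adjusted p = 0.448). ANXA1 (gene 493875), a marker of vesicles that bud from the plasma membrane, was at 113, 110.1, 118, 162 and 111 CPM in fresh tissue, 457, 554, 631, 688 and 802 in culture, and 537, 649, 642, 642 and 605 in vesicle culture. It rose 5.10-fold with no overlap (log2 2.35 ± 0.16, adjusted p = 3.38e-08). ANXA5 (gene 101089351), which binds exposed phosphatidylserine, was at 31.2, 59.4, 26.4, 83.2 and 36.1 CPM in fresh tissue, 234, 373, 411, 249 and 358 in culture, and 224, 328, 300.4, 242 and 358 in vesicle culture. Fresh libraries differed among themselves by more than 3-fold and still lay below all cultured ones, a 6.88-fold rise (log2 2.78 ± 0.30, adjusted p = 2.24e-06).

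MFGE8 (gene 101091372), a secreted protein that links phosphatidylserine on vesicles to integrins on the receiving cell, was at 118, 99.0, 59.2, 51.1 and 96.2 CPM in fresh tissue, 228, 200.4, 408, 249 and 349 in culture, and 255, 215, 308, 311 and 334 in vesicle culture. No cultured library reached down to the fresh range, and the log2 fold change was 1.76 in culture and 1.75 in vesicle culture. ANXA7 rose by 1.01 (adjusted p = 0.000106), ANXA4 by 0.65 (adjusted p = 0.00089) and ANXA11 by 0.46 (adjusted p = 0.0253). The ANXA11 call was lost without fresh 2 (adjusted p = 0.0507), fresh 3 (0.0624) or culture 4 (0.0617).

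Of the 9 endocytosis genes, 5 rose in culture, none fell and 4 were not called (median log2 1.07); the counts were the same without culture 3. In 3 pairs of related genes 1 member was called and the other was not, which is not a test of a difference between them. FLOT2 (gene 101095208), which with FLOT1 forms the flotillin scaffold of membrane rafts, was at 31.0, 35.1, 23.1, 29.0 and 29.3 CPM in fresh tissue, 91.4, 91.1, 126, 96.8 and 90.3 in culture, and 93.3, 80.0, 93.5, 86.7 and 81.6 in vesicle culture. All cultured libraries were above all fresh ones, with a log2 fold change of 1.75 in culture and 1.56 in vesicle culture, while FLOT1 was at -0.09 ± 0.19 in culture (adjusted p = 0.718).

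CLTA (gene 101097521), a clathrin light chain, was at 80.3, 88.9, 69.3, 89.3 and 78.2 CPM in fresh tissue, 141, 149.6, 233, 169 and 158 in culture, and 148, 136, 137, 176 and 122 in vesicle culture. The groups did not overlap and CLTA rose 2.09-fold (log2 1.07 ± 0.15, adjusted p = 2.30e-05). The clathrin heavy chain CLTC was at a log2 of -0.19 ± 0.18 (adjusted p = 0.375), and at -0.02 without culture 3, where its level of 243 CPM was under that of every other library. DNM2, the dynamin that cuts clathrin-coated pits free, was at 0.02 (adjusted p = 0.927).

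Caveolins coat caveolae. CAV1 (gene 493668) was at 80.1, 69.8, 34.9, 34.6 and 25.4 CPM in fresh tissue, 67.4, 92.1, 43.2, 50.4 and 119 in culture, and 63.9, 88.5, 91.7, 45.3 and 116 in vesicle culture. The groups overlapped and the log2 fold change in culture was 0.61 ± 0.36 (adjusted p = 0.162). CAV2 rose by 1.50 (adjusted p = 0.00249; 1.77 without culture 3, which at 10.5 CPM was its lowest library). The count ratio of CAV2 to CAV1 overlapped between the groups. It was 0.286 to 0.632 in fresh libraries and 0.244 to 1.21 in cultures (from 0.503 without culture 3). EHD4 (gene 101083087), an ATPase that recycles endocytosed cargo, was at 36.9, 45.1, 31.8, 33.3 and 42.8 CPM in fresh tissue, 138, 91.7, 174, 189 and 185 in culture, and 174, 145, 184, 204 and 139 in vesicle culture. It rose 4.09-fold with no overlap (log2 2.03 ± 0.19, adjusted p = 6.47e-07), and its paralogue EHD1 by 1.18 (adjusted p = 0.000521).

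Count ratios within a library, which are free of library scaling, were compared for 11 pairs of related genes. In 5 of them the cultured libraries did not overlap fresh tissue: RAB27A to RAB27B (above), SDC1 to SDC4, FLOT2 to FLOT1, CLTA to CLTC, and TSPAN1 to TSPAN8. The pairs were picked by hand, and no share over other gene pairs was computed, so the count of 5 is not a result about these genes. Among all tested single genes, 40.5% in culture and 49.2% in vesicle culture did not overlap fresh tissue. SDC1 to SDC4 ran from 0.184 to 0.435 in fresh libraries, from 1.51 to 3.60 in cultures and from 1.95 to 2.76 in vesicle cultures. FLOT2 to FLOT1 ran from 0.178 to 0.365 in fresh libraries, from 0.749 to 1.08 in cultures and from 0.786 to 1.01 in vesicle cultures. CLTA to CLTC was 0.125 to 0.166, 0.271 to 0.958 and 0.219 to 0.329, and TSPAN1 to TSPAN8 was 0.0109 to 0.0585, 0.436 to 0.830 and 0.410 to 0.975, in the same order. The upper limits of 3.60 for SDC1 to SDC4 and 0.958 for CLTA to CLTC are culture 3; without it the cultures reached 2.02 and 0.312. The other 6 ratios overlapped, 2 of them through culture 3 alone. CD63 to CD9 was 2.64 to 3.65 in fresh libraries, 6.50 in culture 3, 1.36 to 2.02 in the other 4 cultures and 1.10 to 1.92 in vesicle cultures. TSG101 to PDCD6IP was 0.349 to 0.457 in fresh libraries, 0.480 in culture 3, 0.209 to 0.281 in the other 4 cultures and 0.209 to 0.251 in vesicle cultures. These ratios are a description, with no test.

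**Figure D3:**
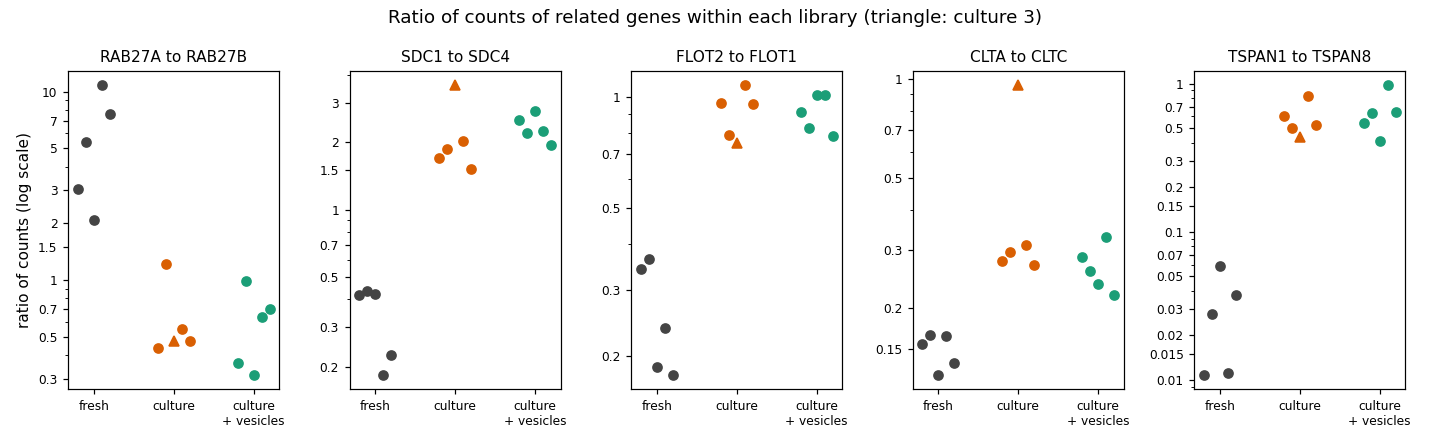
Ratio of the counts of related genes within each library, on a log axis, for the 5 pairs whose 10 cultured libraries do not overlap fresh tissue; each point is a library and the triangle is culture 3. RAB27A to RAB27B is lower in all 10 cultured libraries than in any fresh one, and the other 4 ratios are higher.

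Vesicle culture was also set against fresh tissue, which serves as the control of both comparisons. In vesicle culture 27 of the 52 genes were higher than in fresh tissue, 4 were lower and 21 were not called, against 52.9% of all tested genes called (27.4% higher, 25.5% lower). Without culture 3, which then no longer enters the shared estimate of spread, 31 were higher and 7 lower (59.6% and 13.5%), where calls over all genes also rose to 63% (32.1% higher, 30.9% lower). The ranges did not overlap for 30 genes (24 higher, 6 lower), against 49.2% of all tested genes (25.3% higher, 24% lower). By subgroup, in the order above, the genes called as higher and lower were 6 and 1 of 11, 5 and 1 of 14, 5 and 2 of 11, 6 and 0 of 7, and 5 and 0 of 9.

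Of the 52 genes, 28 were called in both comparisons (53.8%, against 48.3% of all tested genes), TSPAN3 in culture alone, and PROM1, STAM and RAB11A in vesicle culture alone; whether the cultures differ for these genes is tested by comparing them directly, as follows. TSPAN3 was below every fresh library in every vesicle culture, and was called as lower there without culture 3 (log2 -0.39, adjusted p = 0.00286). SDC1 was higher in vesicle culture by a log2 of 4.58 (4.74 in culture), TSPAN1 by 3.54 (3.36), ANXA5 by 2.62 (2.78) and EHD4 by 2.16 (2.03). SMPD3 was at -4.58 (-5.00), RAB27A at -1.76 (-1.82), TSPAN8 at -0.87 (-0.98) and TSG101 at -0.44 (-0.40). The ARF6 call in vesicle culture (0.32, adjusted p = 0.0292) was lost in 7 of the 15 fits that leave out a library and also with DESeq2 (adjusted p = 0.0738), RLE size factors (0.0801), upper-quartile scaling (0.121) and the filter at 1 CPM (0.0509). The calls of RAB11A and ANXA11 in vesicle culture were lost without vesicle culture 1 or 4.

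**Figure D4:**
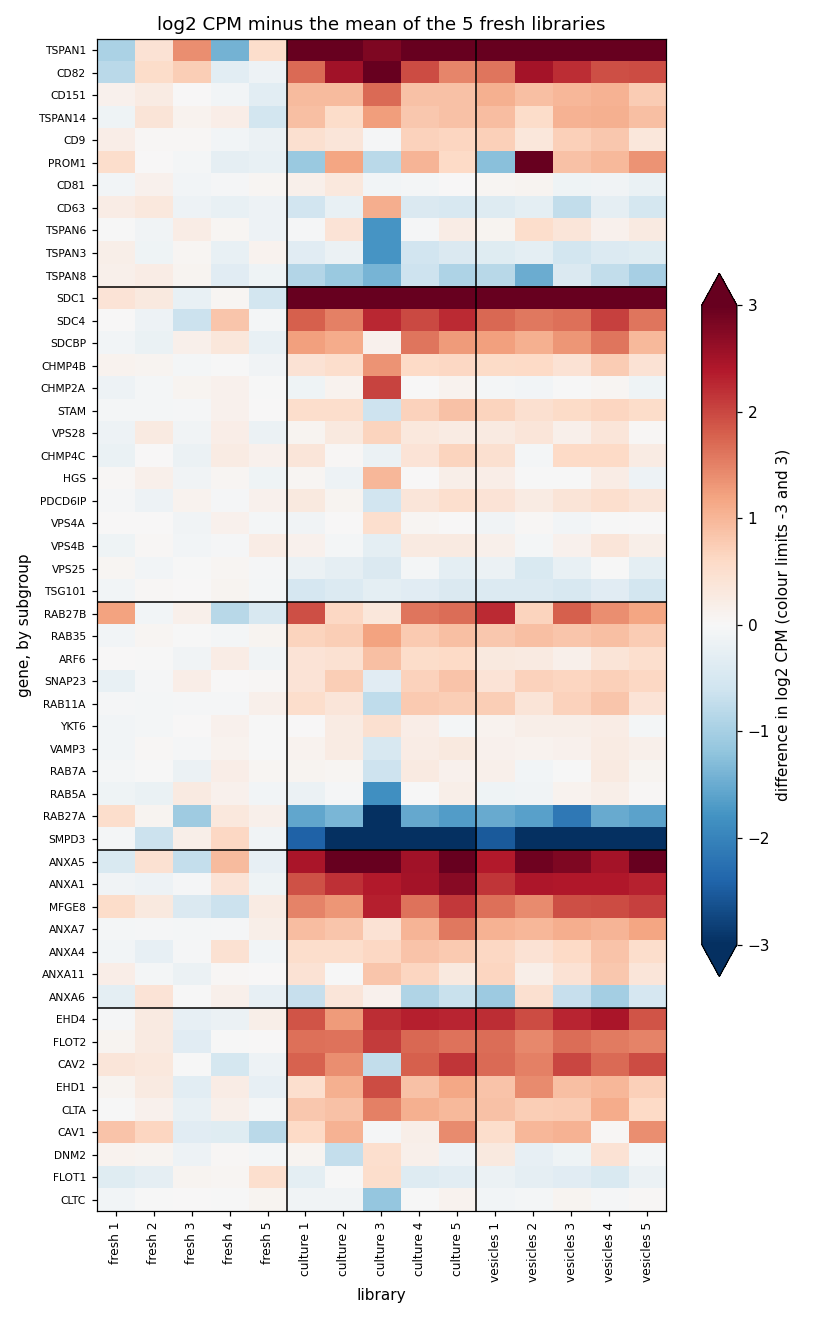
Difference in log2 CPM from the mean of the 5 fresh libraries for the 52 vesicle genes (lines, by subgroup) in all 15 libraries (columns); red is above the fresh mean and blue below, with colours limited at -3 and 3. The cultures and vesicle cultures share most of their pattern, and culture 3 differs from both.

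Vesicle culture was then set against culture, the pair of groups that differ in the labels by the added vesicles. No vesicle gene was called, nor was any of the 18038 tested genes (0% called by edgeR; 183 genes had an unadjusted p under 0.05, and DESeq2 called 0 with 350 at that level). Of the 52 genes, 3 (PROM1, ARF6 and CHMP2A) had an unadjusted p under 0.05. None of the 52 had ranges that did not overlap, against 0.0832% of all tested genes (0.0499% higher, 0.0333% lower). The smallest adjusted p over all genes was 1.

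PROM1 (gene 101080885) was at 5.53, 3.81, 3.65, 3.12 and 3.25 CPM in fresh tissue, 1.69, 8.78, 2.13, 7.76 and 5.75 in culture, and 1.53, 63.2, 7.04, 7.56 and 9.86 in vesicle culture. Vesicle culture 2 stood far above the rest, and the other vesicle cultures were within or close to the range of culture. Its log2 fold change between the cultures was 1.77 (edgeR adjusted p = 1), and 0.31 without vesicle culture 2. Against fresh tissue PROM1 was at 2.20 (adjusted p = 0.0231), and at 0.73 without vesicle culture 2 (adjusted p = 0.263) and 1.24 with the replicate number as a block (adjusted p = 0.14), so that call too rests on vesicle culture 2.

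ARF6 was lower in vesicle culture than in the same-numbered culture in all 5 pairs, by log2 differences of -0.10, -0.20, -0.74, -0.15 and -0.08 (fitted log2 -0.26, adjusted p = 1; -0.17 without culture 3). CHMP2A was at -0.75 (adjusted p = 1) and at -0.07 without culture 3. CD63, described after its values were seen, was at -0.46 with a 95% interval of -1.07 to 0.14, and without culture 3 its interval was -0.31 to 0.29. Without culture 3, none of the 52 genes had an unadjusted p under 0.05.

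For 44 of the 52 genes the 95% interval of the difference between the cultures lay within a log2 of -1 to 1, that is, within 2-fold. The intervals of CD63, CD82, TSPAN1, PROM1, CHMP2A, RAB27B, SMPD3 and CAV2 reached past it. Without culture 3, 49 lay within, and TSPAN1, PROM1 and SMPD3 reached past. With the replicate number as a block, 45 lay within, and CD63, TSPAN1, TSPAN6, PROM1 (-0.25 to 2.69), CHMP2A, SMPD3 and CAV2 reached past. These intervals cover each gene on its own, with no adjustment for the number of genes. CD81 was lower in vesicle culture in all 5 same-numbered pairs (log2 differences of -0.04 to -0.23) and TSPAN6 higher in all 5 (0.05 to 0.15 in 4 pairs and 2.14 in pair 3). Neither had an unadjusted p under 0.05. With ARF6, 3 of the 52 genes moved the same way in all 5 pairs. The share over all tested genes was not computed, so these signs are a description, and whether they reflect the vesicles was not tested.

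**Figure D5:**
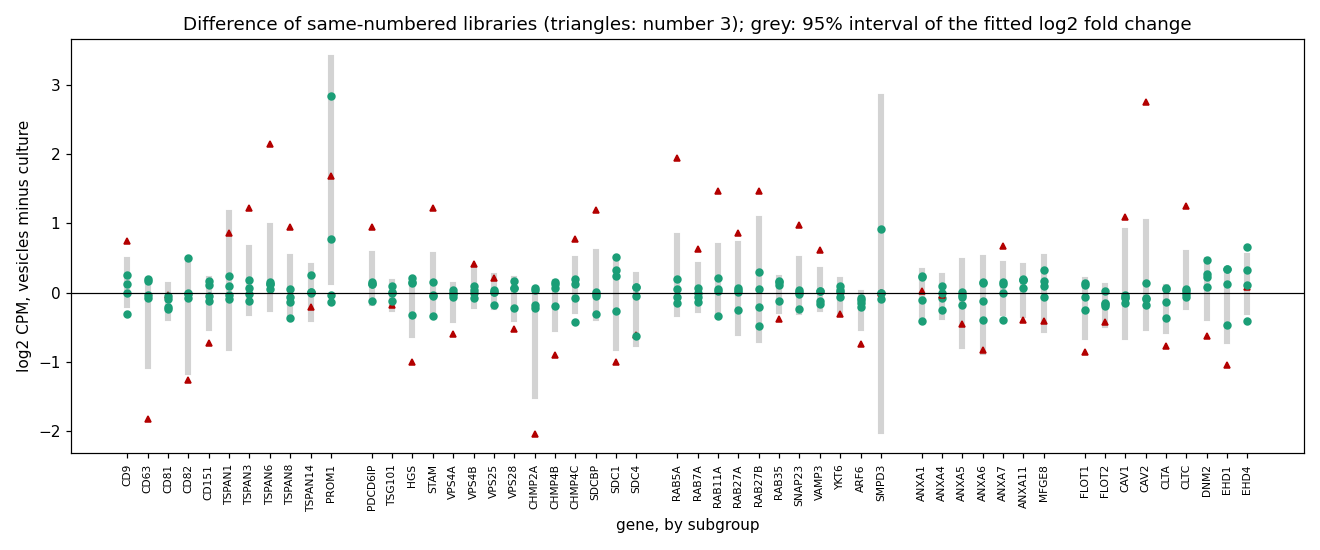
Difference in log2 CPM, vesicle culture minus the same-numbered culture, for the 52 genes; each point is a pair of libraries, red triangles are pair 3, and grey bars are the 95% interval of the fitted log2 fold change. Most green points lie close to 0, the triangles often lie apart, and vesicle culture 2 stands out for PROM1 at 2.84.

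The spread between libraries was small for these genes outside culture 3. The median SD of log2 CPM over the 52 genes was 0.20 in fresh tissue, 0.42 in culture (0.17 without culture 3) and 0.17 in vesicle culture, against 0.29, 0.54 (0.30) and 0.29 over all tested genes. All tested genes were not matched to the 52 for level, so these values do not show a trait of vesicle genes. TSPAN1 varied most among fresh libraries (SD 1.15), CAV2 among cultures (1.16) and PROM1 among vesicle cultures (1.89). Of the 52 genes, 18 overlap another gene in the RefSeq annotation. Besides RAB27A, SNAP23 and SMPD3, the overlapping genes hold over 10% of the gene's own counts for ARF6. Long noncoding RNA genes overlapping ARF6 held 7.13% and 4.39% of its counts. Their log2 fold changes in culture were 9.10 (adjusted p = 0.0478) and -2.34 (adjusted p = 5.18e-06). What part they have in the ARF6 rise in culture was not tested.

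Other genes of the same pathways, 135 by name in 6 lists, were read beside the 52: 132 were in the table and 128 were tested. In culture 66 of the 128 were higher and 14 lower than in fresh tissue (62.5% called, 51.6% higher and 10.9% lower, against 54.3%, 28.7% and 25.6% of all tested genes), with a median log2 fold change of 0.50. Without culture 3, 73.4% were called, against 59.9% of all tested genes. The counts of the single lists below are to be read against these shares. Among 19 further tetraspanins 8 rose and 3 fell. UPK1B, a uroplakin tetraspanin, rose by a log2 of 2.85, TSPAN15 by 3.46 and TSPAN9 by 1.97, while TSPAN13 was at -2.35. Of 26 further ESCRT and syndecan genes 12 rose and none fell, among them SDC2 (1.69), VPS37B of ESCRT-I (0.84), and CHMP4A (0.73) and CHMP2B (0.57) of ESCRT-III; without culture 3 there were 15 and 2.

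Of 34 further RAB, SNARE and lipid enzyme genes 15 rose and 6 fell (22 and 6 without culture 3). PLD2, a phospholipase D that acts with ARF6 and syntenin, rose by 3.05, the endosomal SNARE STX6 by 1.84 and the endosomal GTPase RAB22A by 1.14, while the apical SNARE STX3 was at -2.01. Of 6 further annexin-related genes 5 rose: ANXA3 by 4.44, S100A10, the partner of annexin A2, by 2.58 and S100A11 by 1.82, along with ANXA2. Of 24 further endocytosis genes 14 rose and 2 fell, with AP2A2 of the clathrin adaptor at 1.39, the kinase PAK1 and the GTPase RAC1 of macropinocytosis at 1.65 and 0.94, and the adaptor EPS15 at 0.84; without culture 3 there were 13 and 5. Among 19 receptors that bind vesicles 12 rose and 3 fell, with the hyaluronan receptor CD44 at 4.68, the integrins ITGB3 at 5.60 and ITGB1 at 2.11, and the scavenger receptor SCARB1 at 3.01. Each of the 24 genes named in these lists was called, and none of the 128 was called between the 2 cultures. Genes overlapping UPK1B, CHMP4A and RAC1 held 32.2%, 16.9% and 11.9% of their counts.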

How the data were processed

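The authors deposited raw counts per gene, without normalization, for 15 libraries in 1 table. Per the labels' protocols, a Qiagen kit was used for RNA and TruSeq Stranded mRNA for the libraries. StringTie 2.1.3b, HISAT2 2.1.0, Trimmomatic 0.38 and Bowtie2 2.3.4.1 are listed, without roles, in the submitters' processing notes. Not given in the sources used here are the genome build, the counting program, the use of strand and how reads that match several genes (paralogues, pseudogenes) were counted. All 38995 gene identifiers matched a RefSeq table of assembly F.catus_Fca126_mat1.0, used for symbols and for which genes overlap. 0 entries lacked an identifier, and no column of other samples was present.

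Genes were filtered with filterByExpr (minimum count 10, minimum total 15), TMM-scaled and tested in R 4.3.3 with edgeR 4.0.16 (quasi-likelihood, group as the only term, all 15 libraries, 12 residual degrees of freedom). Tests were 2-sided, with Benjamini-Hochberg adjustment over 18038 genes. The SE is the absolute log2 fold change over the square root of F, and 95% intervals use the t quantile. CPM use TMM-scaled library sizes, and log2 CPM a prior count of 2. The fit was tested on simulated counts. Precision is limited by 5 libraries per group and by these depths.

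The members and lists were chosen with earlier results of these data known. Values in every library are given for the 3 genes of smallest adjusted p per subgroup (culture against fresh tissue), 11 genes chosen by name, the 3 of smallest p between the cultures, and TSPAN8, added after its values were seen; for the other lists, the 4 of smallest adjusted p are named. Deviations from group means correlated between same-numbered libraries at 0.181 to 0.602 for the 2 cultures and 0.242 to 0.362 for vesicle culture and fresh tissue, so those numbers pair libraries. Alternatives were DESeq2 1.42.0, other scalings and filters, the replicate block, only the 10 libraries compared, and leaving out each library.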

Additional observations from a re-analysis of the deposited data

Results flagged for a closer look

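For each of the 52 genes and 3 groups, 156 in all, the log2 CPM of the highest or lowest library was set against the others by Dixon's criterion (0.71 for 5 libraries). The criterion was applied on the log2 scale, while the levels below are printed as CPM. It marked 24, where chance gives about 1 in 20 groups. In 17 of the 24 the library was culture 3.

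Culture 3 was high for CD63 at 1332 CPM (others 420.3 to 542), CHMP2A at 379 (85.1 to 100.4), CHMP4B at 299 (159.9 to 183), CD151 at 224 (126 to 133), HGS at 149 (67.6 to 84.8), FLOT2 at 126 (90.3 to 96.8) and VPS4A at 71.2 (47.0 to 52.6). It was low for CLTC at 243 (505 to 583), RAB7A at 132 (212 to 246), VAMP3 at 122 (183 to 209), RAB11A at 70.8 (156 to 207) and TSPAN3 at 44.1 (100.5 to 133). It was also low for RAB5A at 30.4 (96.2 to 123), STAM at 21.9 (48.8 to 62.8), TSPAN6 at 11.1 (36.9 to 50.4), CAV2 at 10.5 (46.4 to 78.4) and RAB27A at 6.13 (15.6 to 19.1).

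RAB27A was low in the library numbered 3 of each other group too, at 23.7 in fresh 3 (others 52.4 to 71.8) and 11.2 in vesicle culture 3 (16.1 to 17.4). Fresh 5 was high for RAB11A at 135 (117 to 119) and ANXA7 at 59.5 (49.96 to 51.4), and fresh 4 for ANXA1 at 162 (110.1 to 118). Vesicle culture 4 was high for VAMP3 at 202 (184 to 187), and culture 1 for SMPD3 at 0.158, with the others at 0.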

How the results depend on the processing

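Results were recomputed under 23 alternatives (SMPD3, which gave no value under the filter at 1 CPM, has 22 against fresh tissue and 21 between the cultures), of which leaving out all libraries numbered 3 under the replicate block was chosen after seeing the data. Between the cultures 0 members and 0 genes were called in every one. Called members numbered 26 to 36 for culture against fresh tissue (all genes 8671 to 11743) and 28 to 38 for vesicle culture against fresh tissue (8833 to 11833). Of the 29 members called in culture, 24 were called in every alternative that gave them a value, as were 27 of 31 in vesicle culture, and none of these called members changed sign. Of members not called, 9, 35 and 6 of 52 changed sign under at least 1 alternative, for culture against fresh tissue, between the cultures, and for vesicle culture against fresh tissue.

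Upper-quartile scaling shifted the median of all genes by -0.096 in culture and -0.11 in vesicle culture, both against fresh tissue, and under it CD9, SNAP23 and ANXA11 lost their calls in culture. It also ended those of ARF6 (adjusted p = 0.121), RAB11A (0.0557) and ANXA11 (0.0542) in vesicle culture and added VPS25 in both. Sign changes of uncalled members in culture against fresh tissue follow. RLE size factors gave CD63 -0.00976, RAB7A -0.033 and DNM2 -0.00542. Upper-quartile scaling gave CD63 -0.087, CD81 -0.023, VPS4B -0.024, RAB7A -0.088 and DNM2 -0.072. DESeq2 gave CD63 -0.0081, RAB7A -0.030 and DNM2 -0.00349, and the filter at 1 CPM in 5 libraries CD63 -0.00732 and RAB7A -0.021.

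In culture against fresh tissue the replicate block gave CD63 -0.085, RAB7A -0.010 and DNM2 -0.016, with 31 members (VPS28, and VPS25, which other alternatives also added) and 10438 genes called. Same-numbered deviations there correlated at 0.0326 to 0.344, and 4 of 5 libraries correlated best with their own number. The exception was pair 3, which holds culture 3 and fell under 0.1. The main test does not use this pairing. With the block and no library numbered 3, values were CD63 -0.47, TSPAN6 0.19, VPS4A -0.029, RAB5A 0.056 and DNM2 -0.20, and CD63 between the cultures 0.061. The block changed no call between the cultures; in vesicle culture it ended that of PROM1 and added ANXA6 (-0.57, adjusted p = 0.0232).

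Over fits that each left out 1 library, CD63 ran from -0.43 (without culture 3) to 0.14, TSPAN6 from -0.23 to 0.15, RAB7A from -0.064 to 0.14, FLOT1 from -0.27 to 0.060 and DNM2 from -0.11 to 0.17. Calls lost this way are given beside each gene above. The members lower in vesicle culture went from 4 to 7 without culture 3, where lower calls over all genes rose from 25.5% to 30.9%. The cause of these changes was not tested. Low counts limit SMPD3.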
